A study of Homo sapiens with 6 samples.

Results

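The genes described here are 41 interferon-stimulated genes, interferon signal factors and RNA sensors out of 60675 rows of a gene count table. These genes were chosen by name, with earlier results of these data known. They were measured in 6 RNA-seq libraries of the human colorectal carcinoma line HCT116, in a study of SP2509 as a repressor of hTERT, the catalytic subunit of telomerase. SP2509 is a small-molecule inhibitor of the histone demethylase LSD1, which is encoded by KDM1A, and pirin, the product of PIR, is a nuclear protein that binds iron. Each of 3 groups had 2 libraries. The SP2509 group was wild-type HCT116 given SP2509, per the labels at 3 µM for 48 hours. The siPIR group was HCT116 with transient siRNA knockdown of PIR, and the labels give 48 hours for this group too. Its treatment label also names SP2509 although its sample titles name the knockdown alone, so knockdown and compound cannot be told apart in it. The untreated group was wild-type HCT116; the labels' protocol mentions DMSO without saying whether these libraries received it, and no library with a non-targeting siRNA was analysed here. Nothing in the labels says that the libraries of a group came from separate cultures, so p-values measure the spread between these libraries, which may be technical.

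Cells make type I and type III interferons after RNA or DNA sensors such as RIG-I and MDA5 detect foreign or misplaced nucleic acid. Secreted interferon binds its receptor and activates the JAK1 and TYK2 kinases, which phosphorylate STAT proteins. STAT2 and IRF9 are subunits of the ISGF3 complex, which binds the interferon-stimulated response element (ISRE) near its target genes, among them most of the sensors and factors of the pathway itself. Loss of LSD1 has been reported to raise interferon genes in some cancer cells through the accumulation of double-stranded RNA from endogenous retroviruses. The SP2509 group shows the levels of these genes in HCT116 given an inhibitor of LSD1, which is not the same as loss of LSD1. LSD1 activity, retroviral RNA and double-stranded RNA were not examined here.

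After SP2509 most of these genes were lower. Of the 38 members that could be tested, 22 fell and 3 rose, IRF7, TRIM25 and ISG15, while 13 did not pass the test (edgeR quasi-likelihood test, Benjamini-Hochberg adjusted p below 0.05). The largest decreases were those of IFITM1, BST2, IFIT1, CMPK2 and IFI6, all antiviral effectors. Of the interferon genes themselves, all but IFNE had at most 3 counts in any library. The 22 lower members made up 57.9% of those tested, against 35.1% of all 16503 genes tested, and the 3 higher members made up 7.89%, against 33.5% of all genes. The median log2 fold change of the 38 members was -0.77, and that of all genes was -0.04. Decreases past 2-fold were called for 15 members, 39.5% of those tested, against 17.9% of all genes. The comparison of all genes moved with the scaling: with total counts only, 20.4% of all genes were called higher and 51.7% lower, the all-gene median was -0.43, and the members' median was -1.16.

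Total counts per library ran from 22622121 to 28816285. PIR had 1.93 and 2.03 CPM (counts scaled to library size with TMM factors) in siPIR libraries, against 14.4 and 14.6 CPM in untreated libraries. KDM1A, the target of SP2509 at the protein level, had 146 and 141 CPM in SP2509 libraries, against 194 and 193 CPM in untreated libraries. Mitochondrial ribosomal RNA made up 6.33 and 6.93% of counts in SP2509 libraries, against 1.63 and 1.6% in untreated libraries, and its part in the results was not tested. The siPIR libraries stood apart: the count-weighted GC content of their genes was 42.3 and 42.8%, against 48.3 to 48.7% in the other 4 libraries. Epithelial markers were abundant as a sum in all libraries, at 4840 and 4940 CPM with SP2509, 1330 and 1350 CPM with siPIR and 3820 and 3760 CPM in untreated cells, although CDX1 was at 0 counts and VIL1 and LGALS4 were near 0. In siPIR the markers moved apart. Without adjustment for GC content, EPCAM and CDH1 were above untreated (log2 fold change 1.75 and 0.61). KRT8, KRT18, KRT19, CDX2 and CLDN4 were below it (log2 fold change -3.61 to -2.55). Of 10 leukocyte markers, PTPRC, CD3E and TYROBP were at 0 in all libraries and the whole list summed to at most 2.06 CPM. The fibroblast list summed to 20.8 to 25.8 CPM in SP2509 and untreated libraries, nearly all of it COL1A1, with COL1A2 at 0. In bulk samples, fewer expressing cells and less RNA per cell cannot be told apart.

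The ISRE is the sequence through which most of these genes are known to respond, so the promoters of members that fell, rose or did not pass the test are shown. Of the 41 members, 34 matched a RefSeq promoter window on GRCh38.p14, running from 250 bases before to 50 after the annotated start. The 7 without a window were IRF7, USP18, OAS2, IFIT2, DHX58, OASL and IFITM2. The ISRE was taken as GAAA, any 2 bases and GAAA again, searched on both strands. It occurred in 21 of these 34, which is 61.8%, against 4.38% of 27305 gene symbols in the table with any of their windows. In the sequences below, written 5′ to 3′ on the gene's strand, capitals mark every match, and a pair of TTTC is the same element on the other strand. Neighbouring matches may overlap. IFITM1, BST2, IFIT1, IFIT5, IFI6, SAMD9 and IFITM3 fell after SP2509, ISG15 rose, and EIF2AK2 and PARP14 did not pass the test.
IFITM1, chr11:313980-314043, + strand: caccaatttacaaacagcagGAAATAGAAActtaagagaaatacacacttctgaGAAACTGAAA
BST2, chr19:17405725-17405780, - strand: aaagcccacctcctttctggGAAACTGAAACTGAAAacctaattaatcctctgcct
IFIT1, chr10:89392487-89392549, + strand: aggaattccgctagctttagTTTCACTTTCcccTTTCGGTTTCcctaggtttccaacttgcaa
IFIT5, chr10:89414503-89414573, + strand: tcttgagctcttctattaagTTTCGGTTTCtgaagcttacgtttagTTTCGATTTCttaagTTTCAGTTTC
IFI6, chr1:27672256-27672368, - strand: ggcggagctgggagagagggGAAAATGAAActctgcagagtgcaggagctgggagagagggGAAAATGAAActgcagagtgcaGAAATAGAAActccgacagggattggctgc
SAMD9, chr7:93118086-93118135, - strand: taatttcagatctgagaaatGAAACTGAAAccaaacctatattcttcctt
IFITM3, chr11:320866-320932, - strand: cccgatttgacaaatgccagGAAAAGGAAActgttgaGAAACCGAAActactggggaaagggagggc
ISG15, chr1:1013364-1013419, + strand: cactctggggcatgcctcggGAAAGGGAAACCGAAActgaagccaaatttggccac
EIF2AK2, chr2:37156977-37157006, - strand: gggaaggcggagtccaagggGAAAACGAAA
PARP14, chr3:122680790-122680838, + strand: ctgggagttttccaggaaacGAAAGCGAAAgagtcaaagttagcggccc

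The first matched base lay 130 bases before the start of BST2, 116 before that of IFIT1, 113 before that of ISG15 and 6 before that of EIF2AK2. Presence of the element did not separate the matched members by their response to SP2509. It was found in 12 of 19 matched members that fell (63.2%), in 7 of 11 that did not pass the test (63.6%) and in 1 of 2 that rose, ISG15 but not TRIM25. IRF7, the member that rose most, had no window and was not searched. Among the matched members that fell, STAT2, DDX58 (RIG-I), UBE2L6, HERC6, CMPK2, SAMHD1 and OAS1 had no match in the window. The gamma-activated site, the element known for responses to interferon gamma, taken as TTC, any 3 bases and GAA, occurred in 11 of 34 members (32.4%), against 9.38% of gene symbols. That element was found in 4 of 19 members that fell, in 7 of 11 that did not pass the test, IRF1 and IRF9 among them, and in neither of the 2 that rose. Matches to both elements overlapped in 5 of 45 member windows. A match is a description of letters and was not tested as a binding site.

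In untreated HCT116 the members spanned a wide range of levels. Per kilobase of the longest annotated transcript, the highest level was that of IFITM3 with 124 CPM per kb, followed by IFITM2 with 45.5, ISG15 with 41.9, TRIM25 with 28.9 and IFI6 with 16.8 CPM per kb. At the lower end, OAS1 had 0.33 and IRF9, MX1 and IFI44 about 0.28 CPM per kb. Mean levels were over 10 CPM for 19 members and under 1 CPM for 7. OAS2, RSAD2 and XAF1 did not pass the filter on low counts and were not tested. OAS2 had 1 and 3 counts in SP2509 libraries, none in either siPIR library, and 3 and 2 in untreated libraries. RSAD2 (viperin) had 1 and 0, 3 and 0, and 5 and 3 counts in the same order, and XAF1 had 1 count in all libraries together.

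**Figure D1:**
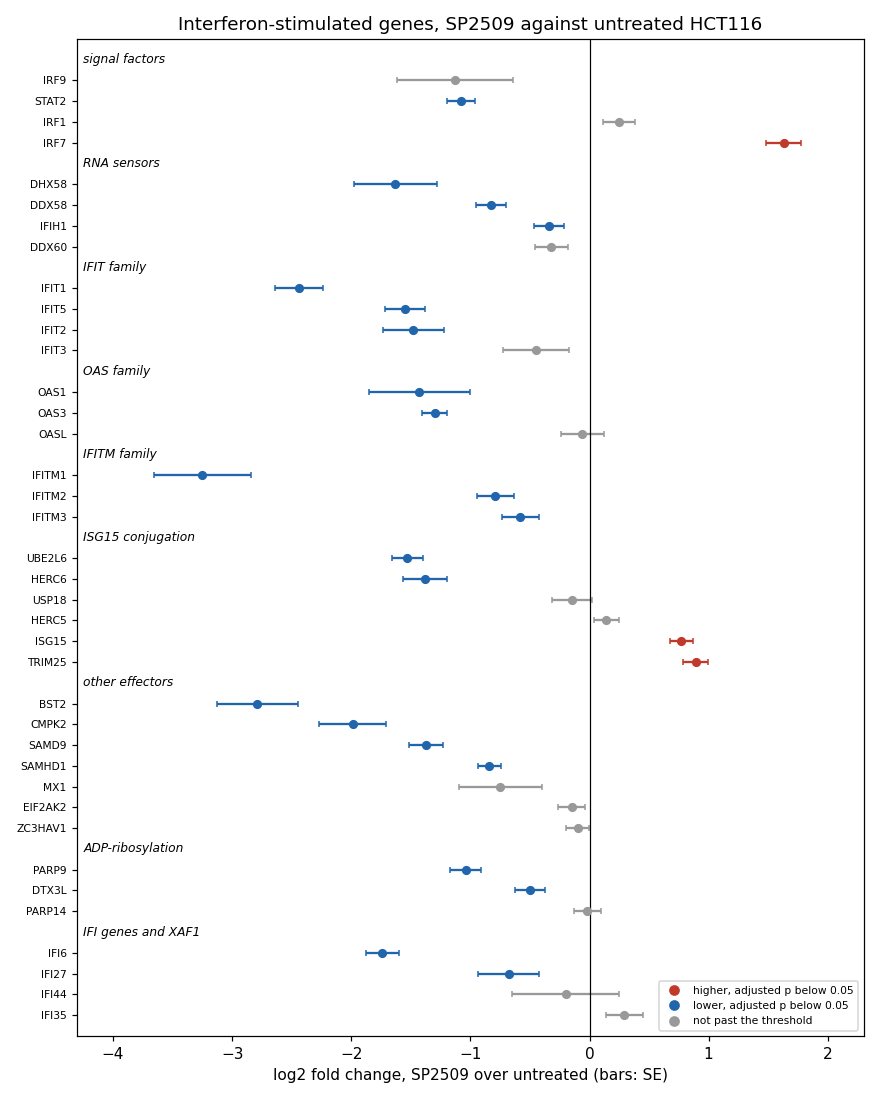
Log2 fold change, SP2509 over untreated, of the 38 members tested, grouped by role; points are edgeR estimates, bars their SE (n = 2 libraries per group), and colour the call at adjusted p below 0.05. Most points lie left of 0, from IFITM1 at -3.25 to IRF7 at 1.63.

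Among the signal factors, STAT2 fell and IRF7 rose. STAT2, the interferon-specific subunit of ISGF3, had 16.3 and 17.5 CPM in SP2509 libraries, against 35 and 36.3 CPM in untreated libraries, a log2 change of -1.08 (SE 0.117, edgeR adjusted p = 4.33e-06). IRF7, the factor that amplifies interferon production, had 12.8 and 15.9 CPM in SP2509 libraries, against 4.76 and 4.52 CPM in untreated libraries (log2 fold change 1.63, SE 0.148, edgeR adjusted p = 1.58e-06). Thus both SP2509 libraries lay below the untreated libraries for STAT2 and above them for IRF7. IRF1, a factor that also answers to interferon gamma and to NF-kB, had 14.7 and 16.1 CPM with SP2509 and 13.2 and 12.7 CPM untreated, and missed the threshold (log2 fold change 0.25, edgeR adjusted p = 0.115). IRF9, the DNA-binding subunit of ISGF3, had only 9 and 3 counts with SP2509 and 18 and 17 counts untreated, and a log2 fold change of -1.13 that did not pass (SE 0.487, edgeR adjusted p = 0.0558); without SP2509 replicate 1 it did, at -2.09 (edgeR adjusted p = 0.0282). IRF9 also overlaps the exons of another gene on its strand, AL136295.5.

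The cytosolic RNA sensors fell or did not pass the test. DDX58, which encodes RIG-I, had 10.3 and 8.65 CPM in SP2509 libraries, against 15.7 and 18.1 CPM in untreated libraries (log2 fold change -0.83, SE 0.127, edgeR adjusted p = 7.7e-05). DHX58, which encodes the regulatory sensor LGP2, had 0.628 and 0.31 CPM with SP2509 and 1.30 and 1.64 CPM untreated (log2 fold change -1.63, SE 0.347, edgeR adjusted p = 0.00103). For both sensors the groups did not overlap. IFIH1, which encodes MDA5, was called at -0.34 (SE 0.125, edgeR adjusted p = 0.0295), but the call was lost when any 1 of the 4 libraries was left out, with adjusted p between 0.0736 and 0.206. DDX60, a helicase reported to assist RIG-I, had 8.84 and 6.87 CPM with SP2509 and 9.57 and 9.99 CPM untreated and did not pass (log2 fold change -0.32, edgeR adjusted p = 0.0541); without SP2509 replicate 1 it was -0.50 (edgeR adjusted p = 0.0252). With all libraries, IFIH1 was not called by DESeq2 (-0.32, DESeq2 adjusted p = 0.153) or with no count filter (-0.32, edgeR adjusted p = 0.0765). No member of this group rose.

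The IFIT proteins bind RNA that lacks the cap modifications of the host, and their 4 genes form a cluster of 137 kb on chromosome 10. IFIT1 had 1.73 and 1.09 CPM in SP2509 libraries, against 8.16 and 7.12 CPM in untreated libraries, a log2 change of -2.44 (SE 0.204, edgeR adjusted p = 4.38e-07). IFIT5, the most abundant of the family, had 7.27 and 6.25 CPM with SP2509 and 19.6 and 20.1 CPM untreated (log2 fold change -1.55, SE 0.165, edgeR adjusted p = 3.48e-06). IFIT2 had 1.18 and 0.815 CPM with SP2509 and 2.41 and 3.19 CPM untreated (log2 fold change -1.48, SE 0.255, edgeR adjusted p = 0.000211). These 3 genes were lower in both SP2509 libraries than in either untreated library. IFIT3, which lies between IFIT2 and IFIT1 and stabilises IFIT1 protein, had a log2 fold change of -0.45 that did not pass (SE 0.275, edgeR adjusted p = 0.163). Whether its change differed from that of its neighbours was not tested.

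The OAS enzymes make 2′-5′ oligoadenylate on double-stranded RNA, which activates RNase L. OAS3, by far the most abundant, had 23.1 and 21.5 CPM in SP2509 libraries, against 56.6 and 53.3 CPM in untreated libraries (log2 fold change -1.30, SE 0.103, edgeR adjusted p = 2.8e-07). OAS1, its neighbour on chromosome 12, had 0.314 and 0.272 CPM with SP2509 and 0.774 and 0.822 CPM untreated (log2 fold change -1.43, SE 0.423, edgeR adjusted p = 0.00907); this call was lost without untreated replicate 1, untreated replicate 2 or SP2509 replicate 2 (adjusted p = 0.0504, 0.0589 and 0.0741). OASL, a catalytically inactive relative that enhances RIG-I signalling, had 3.69 and 3.80 CPM with SP2509 and 3.73 and 4.08 CPM untreated, and these ranges overlapped (log2 fold change -0.06, edgeR adjusted p = 0.786). So, as fitted, the catalytic members tested, OAS1 and OAS3, fell, and OASL did not pass the test. DESeq2 with all libraries did not call OAS1 (log2 fold change -1.42, DESeq2 adjusted p = 0.103).

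All 3 IFITM genes, whose membrane proteins block virus entry, fell. IFITM1 had 0.275 and 0.116 CPM in SP2509 libraries, which is 7 and 3 counts, against 2.13 and 1.64 CPM in untreated libraries, which is 77 and 52 counts (log2 fold change -3.25, SE 0.406, edgeR adjusted p = 1.4e-05). This was the largest decrease of any member in the fit with all libraries, and without SP2509 replicate 1 it was -3.96. IFITM2 had 23.3 and 23.9 CPM with SP2509 and 42.3 and 38.9 CPM untreated (log2 fold change -0.79, SE 0.152, edgeR adjusted p = 0.000525). IFITM3 had 66.3 and 67.6 CPM with SP2509 and 106 and 93.7 CPM untreated (log2 fold change -0.58, SE 0.152, edgeR adjusted p = 0.00434), a call that was lost without untreated replicate 1 (adjusted p = 0.0694). The 3 genes are close copies within 19.9 kb of chromosome 11, IFITM1 and IFITM2 share annotated exon bases, and IFITM2 and IFITM3 had fractional counts in all 6 libraries, so the division of reads among them is uncertain.

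ISG15 is a ubiquitin-like protein that is attached to other proteins by an enzyme chain, and the members of this chain moved in opposite directions. ISG15 itself had 54.6 and 57.6 CPM in SP2509 libraries, against 34.0 and 32.0 CPM in untreated libraries (log2 fold change 0.77, SE 0.0958, edgeR adjusted p = 1.44e-05). TRIM25, a ubiquitin and ISG15 ligase that acts on RIG-I, had 285 and 330 CPM with SP2509 and 168 and 163 CPM untreated (log2 fold change 0.89, SE 0.107, edgeR adjusted p = 1e-05). Both were higher in each SP2509 library than in either untreated library. UBE2L6, the conjugating enzyme of ISG15, had 6.68 and 6.05 CPM with SP2509 and 17.4 and 19.5 CPM untreated (log2 fold change -1.53, SE 0.13, edgeR adjusted p = 4.97e-07). HERC6, a ligase of the HERC family, had 3.46 and 2.41 CPM with SP2509 and 8.41 and 6.86 CPM untreated (log2 fold change -1.38, SE 0.186, edgeR adjusted p = 2.64e-05). The main human ISG15 ligase HERC5, next to HERC6 on chromosome 4 and separated from it by 14.0 kb, did not pass (log2 fold change 0.14, SE 0.104, edgeR adjusted p = 0.23; with upper-quartile scaling the value was -0.09). USP18, the protease that removes ISG15 and also restrains the type I receptor, did not pass either (log2 fold change -0.15, edgeR adjusted p = 0.454); it had fractional counts in all libraries. TRIM25 shares exon bases with C17orf67 and MIR3614 on its strand and with DGKE on the opposite strand, and ISG15 with AL645608.3 on the opposite strand. The library kit preserved strand, and no source used here says whether counting used it.

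**Figure D2:**
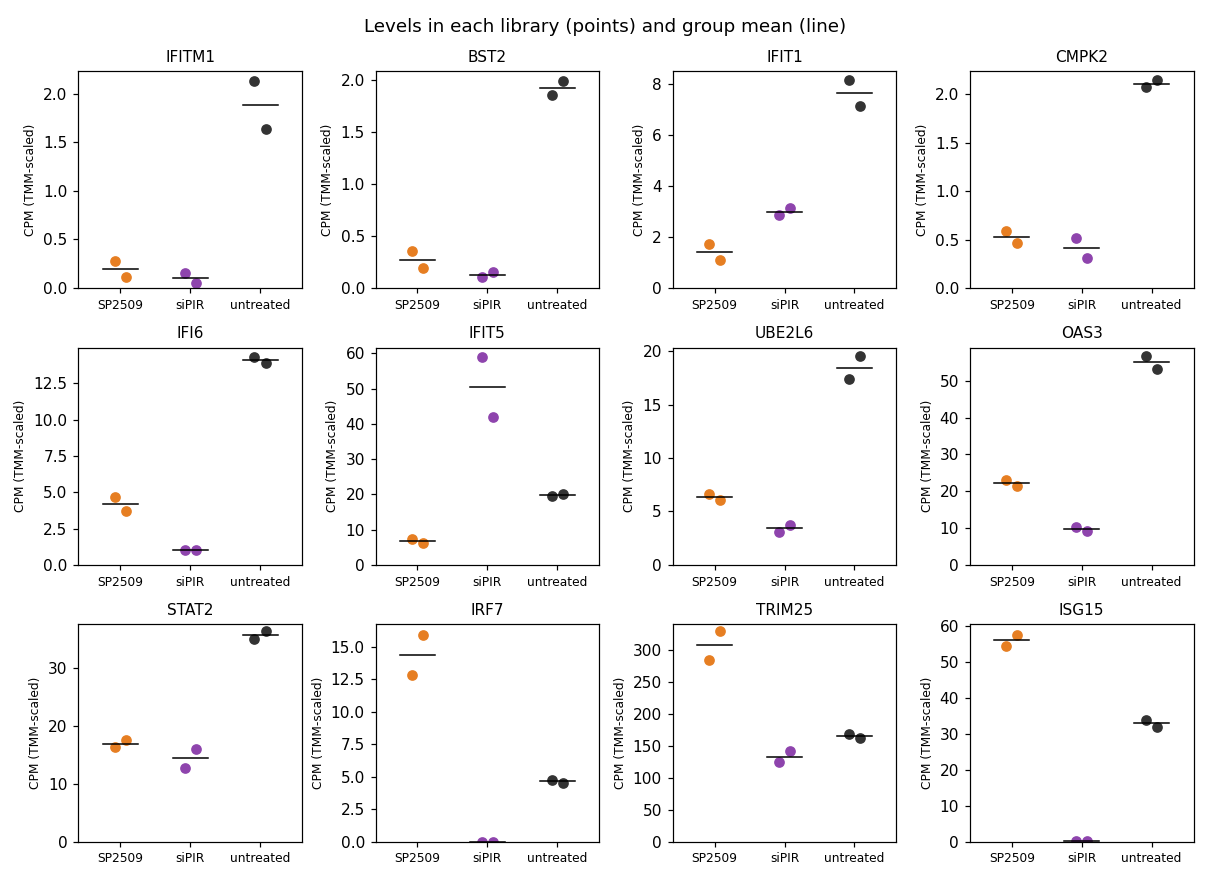
CPM of 12 members in each library (points; line, mean of the 2 libraries) for SP2509, siPIR and untreated HCT116, each panel with its own axis from 0. The SP2509 points lie below the untreated points in the 9 panels from IFITM1 to STAT2 and above them for IRF7, TRIM25 and ISG15; in siPIR, IRF7 is at 0 and ISG15 near 0, and IFIT5 is above the untreated level.

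Of the other antiviral effectors, BST2 and CMPK2 fell most. BST2 (tetherin), which holds budding virus at the membrane, had 0.354 and 0.194 CPM in SP2509 libraries, against 1.85 and 1.99 CPM in untreated libraries (log2 fold change -2.79, SE 0.34, edgeR adjusted p = 1.12e-05). CMPK2, a mitochondrial nucleotide kinase, had 0.589 and 0.466 CPM with SP2509 and 2.07 and 2.15 CPM untreated (log2 fold change -1.99, SE 0.284, edgeR adjusted p = 4.38e-05). SAMD9, a growth and translation inhibitor, had 6.95 and 5.55 CPM with SP2509 and 16.2 and 16.0 CPM untreated (log2 fold change -1.37, SE 0.143, edgeR adjusted p = 3.01e-06). The groups did not overlap for any of the 3. SAMHD1, which depletes deoxynucleotides, was called at -0.84 (SE 0.0964, edgeR adjusted p = 6.56e-06). The more abundant EIF2AK2, which encodes the double-stranded RNA-activated kinase PKR, had 70.3 and 64.2 CPM with SP2509 and 79.2 and 70.4 CPM untreated and did not pass (log2 fold change -0.15, SE 0.112, edgeR adjusted p = 0.24). Likewise ZC3HAV1, which encodes the zinc-finger antiviral protein ZAP, had 45.9 and 50.7 CPM with SP2509 and 53.8 and 49.6 CPM untreated, with overlapping ranges (log2 fold change -0.10, edgeR adjusted p = 0.393). MX1, a dynamin-like GTPase often used as an interferon marker, had 14 and 16 counts with SP2509 and 40 and 27 counts untreated and also missed it (log2 fold change -0.75, SE 0.35, edgeR adjusted p = 0.0741).

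PARP9 and DTX3L form a complex that modifies histones and enhances interferon signalling, and their genes lie head to head on chromosome 3 with overlapping exons on opposite strands. A single ISRE match lies in the promoter windows of both, shown here on the strand of DTX3L because the pair shares it.
DTX3L and PARP9, chr3:122564312-122564341, + strand: ggagggacctccagggaagcGAAACTGAAA
PARP9 had 5.81 and 5.47 CPM in SP2509 libraries, against 12.3 and 10.8 CPM in untreated libraries (log2 fold change -1.04, SE 0.13, edgeR adjusted p = 1.46e-05). DTX3L had 11.5 and 9.58 CPM with SP2509 and 15.4 and 14.4 CPM untreated (log2 fold change -0.50, SE 0.128, edgeR adjusted p = 0.00391), and its call was lost without untreated replicate 1 or SP2509 replicate 2 (adjusted p = 0.0518 and 0.0859). PARP14, a macrodomain ADP-ribosyltransferase in the same 203 kb interval, had 25.8 and 20.9 CPM with SP2509 and 23.6 and 23.6 CPM untreated, so that the groups overlapped (log2 fold change -0.02, edgeR adjusted p = 0.909; without SP2509 replicate 2 the value was 0.15).

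Of the IFI genes, IFI6, a small mitochondrial and endoplasmic reticulum protein, had 4.71 and 3.72 CPM in SP2509 libraries, against 14.3 and 13.9 CPM in untreated libraries (log2 fold change -1.74, SE 0.141, edgeR adjusted p = 3.3e-07). IFI27 was called at -0.68 (SE 0.258, edgeR adjusted p = 0.0322), and this call was lost without untreated replicate 1, untreated replicate 2 or SP2509 replicate 2 (adjusted p = 0.178, 0.0711 and 0.282). IFI35, a partner of the STAT-interacting protein NMI, had 4.71 and 4.50 CPM with SP2509 and 3.79 and 3.73 CPM untreated, a value that did not pass (log2 fold change 0.29, SE 0.156, edgeR adjusted p = 0.114). IFI44 had 15 and 6 counts with SP2509 and 17 and 15 counts untreated, which overlap (log2 fold change -0.20, SE 0.45, edgeR adjusted p = 0.704; without SP2509 replicate 2 the value was 0.34). DESeq2 with all libraries did not call IFI27 (log2 fold change -0.66, DESeq2 adjusted p = 0.168). IFI6 was thus the member of this group whose fall held in all 15 alternative analyses.

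Over all members, both SP2509 libraries lay below both untreated libraries for 28 of the 38 tested and above them for 6, and the groups overlapped for 4; over all genes tested, 45% lay below and 41.9% above in this way. The summed level of the 41 genes differed little, with 775 and 808 CPM in SP2509 libraries and 851 and 811 CPM in untreated libraries. TRIM25, which rose, was the largest contributor to that sum.

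A list of 117 other genes of the pathway was set beside the members. Of the 82 tested, 38 rose (46.3%), against 33.5% of all genes, and 20 fell (24.4%), against 35.1% of all genes. Their median log2 fold change was 0.23. With total counts only, 25 rose and 35 fell, against 20.4 and 51.7% of all genes; whether this list differed from the members was not tested. Without untreated replicate 1 or SP2509 replicate 1 the number that fell was 13. Of 21 interferon ligand genes, 18 had 0 counts in all 6 libraries, IFNB1 among them, where 3 counts in a library amount to 0.083 to 0.157 CPM, the level that a count of 0 allows. IFNE, an epithelial type I interferon, was the only ligand tested, with 8 and 8 counts in SP2509 libraries, against 17 and 15 counts in untreated libraries, and did not pass (log2 fold change -0.59, SE 0.404, edgeR adjusted p = 0.21).

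All 11 tested genes of the receptor and kinase list changed, against 33.5% of all genes called higher and 35.1% lower. Of the 11, 8 were higher (72.7%). With upper-quartile scaling 6 rose and 3 fell, against 25.5 and 44.8% of all genes. With total counts 5 rose and 3 fell, against 20.4 and 51.7% of all genes. IFNLR1, the specific chain of the type III interferon receptor, had 37.8 and 35.2 CPM in SP2509 libraries, against 12.8 and 11.6 CPM in untreated libraries (log2 fold change 1.58, SE 0.113, edgeR adjusted p = 1.24e-07). JAK1, which serves both receptor types, had 173 and 170 CPM with SP2509 and 95 and 87.1 CPM untreated (log2 fold change 0.91, SE 0.0961, edgeR adjusted p = 3.2e-06). The type I receptor chains differed: IFNAR1 was called at 0.31 (SE 0.106, edgeR adjusted p = 0.0192; -0.08 with total counts, not called) and IFNAR2 at -0.75 (SE 0.134, edgeR adjusted p = 0.000271). TYK2 was called at -0.50 (SE 0.096, edgeR adjusted p = 0.000456). Thus mRNAs of STAT2, TYK2 and IFNAR2 fell, those of JAK1 and IFNLR1 rose, and the rise of IFNAR1 depended on the scaling.

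Of the 14 sensing adaptors tested, 5 rose and 6 fell, or 35.7 and 42.9%, near the 33.5 and 35.1% of all genes. With total counts 5 rose and 8 fell, against 20.4 and 51.7% of all genes. TMEM173, which encodes the DNA-sensing adaptor STING, had 11.7 and 8.57 CPM in SP2509 libraries, against 24.2 and 26.3 CPM in untreated libraries (log2 fold change -1.32, SE 0.142, edgeR adjusted p = 4.05e-06). IKBKE, an interferon-inducible kinase for IRF3, had 1.41 and 0.892 CPM with SP2509 and 5.12 and 4.52 CPM untreated (log2 fold change -2.06, SE 0.223, edgeR adjusted p = 3.99e-06). MAVS, the mitochondrial adaptor of RIG-I and MDA5, had 142 and 150 CPM with SP2509 and 276 and 265 CPM untreated (log2 fold change -0.89, SE 0.0977, edgeR adjusted p = 4.55e-06). The other 3 adaptors that fell were called at -0.43 to -0.31. Among those that rose, TICAM1, the adaptor of TLR3, was called at 1.75, PQBP1, a cofactor of the DNA sensor cGAS, at 1.64, AZI2 at 1.10 and TBK1, the central kinase for IRF3 that serves both MAVS and STING, at 0.82, with edgeR adjusted p between 8.09e-08 and 1.69e-05. IRF3 missed the threshold (log2 fold change -0.06, SE 0.0973, edgeR adjusted p = 0.604).

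**Figure D3:**
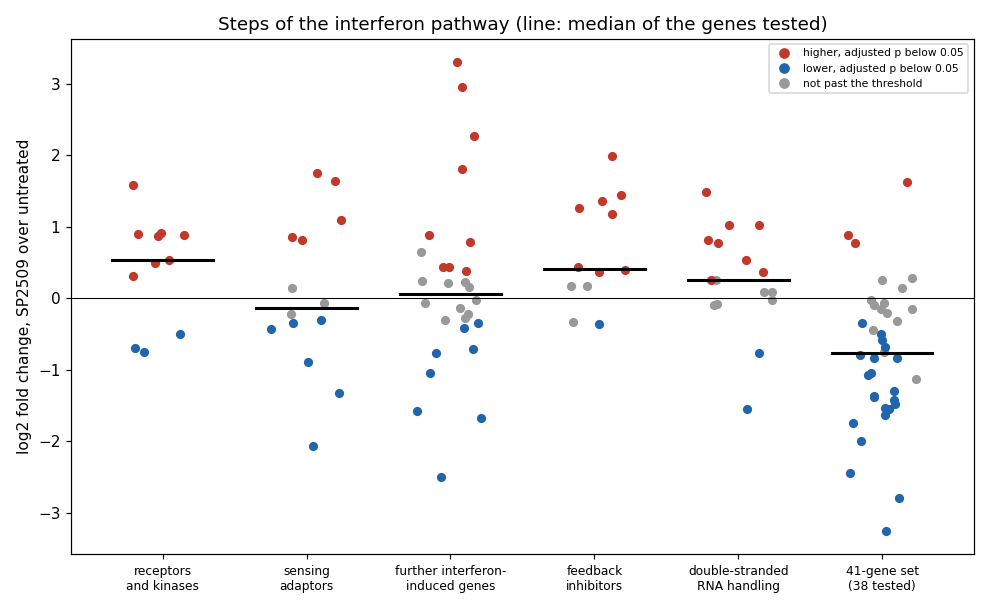
Log2 fold change, SP2509 over untreated, of the tested genes of 5 further pathway groups and of the 41-gene set (38 tested); each point is a gene, the line the median of the genes tested, and colour the call at adjusted p below 0.05. The line of the 41-gene set lies at -0.77, and those of feedback inhibitors and of receptors and kinases lie at 0.41 and 0.54.

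Further interferon-induced genes outside the 41 moved in both directions, as all genes did: 9 of 28 tested were higher (32.1%) and 8 lower (28.6%), against 33.5 and 35.1% of all genes. Their median log2 fold change was 0.07. Under upper-quartile scaling 5 were higher and 13 lower, against 25.5 and 44.8% of all genes. Under total counts 5 were higher and 14 lower, against 20.4 and 51.7% of all genes. ISG20, an RNA exonuclease, had 24.8 and 25.9 CPM in SP2509 libraries, against 2.63 and 2.50 CPM in untreated libraries (log2 fold change 3.30, SE 0.135, edgeR adjusted p = 1.44e-09). APOL6, LAMP3 and SP100 also rose, by 2.96, 2.27 and 1.81 on the log2 scale (edgeR adjusted p = 7.74e-07, 1.9e-08 and 1.27e-08). By contrast GBP2, a guanylate-binding protein, had 0.55 and 0.582 CPM with SP2509 and 2.74 and 3.73 CPM untreated (log2 fold change -2.50, SE 0.276, edgeR adjusted p = 4.92e-06). SP110, TRIM14 and EPSTI1 were lower, at -1.67, -1.57 and -1.05 (edgeR adjusted p = 7.06e-05, 2.65e-07 and 0.0466). CXCL10, CXCL11 and CCL5, the chemokines most often read as interferon output, had at most 1 count in any library.

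Of the list named feedback inhibitors, 8 of 12 tested were higher (66.7%, against 33.5% of all genes) and 1 lower (8.33%, against 35.1%). With total counts 5 were higher and 2 lower, against 20.4 and 51.7% of all genes. Whether interferon induces the genes of this list was not tested. USP18, which also restrains the type I receptor, is counted among the members and did not pass (log2 fold change -0.15, edgeR adjusted p = 0.454). IRF2BP2, a corepressor of IRF2, had 206 and 230 CPM in SP2509 libraries, against 57.7 and 52.2 CPM in untreated libraries (log2 fold change 1.99, SE 0.117, edgeR adjusted p = 2.63e-08). SOCS3 and SOCS1, which inhibit JAK kinases, were called at 1.44 and 1.26 (edgeR adjusted p = 2.52e-07 and 0.000197). PTPN2, a phosphatase of JAK1, was called at 1.36 and TRIM24 at 1.18 (edgeR adjusted p = 1.2e-07 and 4.38e-07). Among 16 genes that handle double-stranded RNA, 8 rose (50%) and 2 fell (12.5%), against 33.5 and 35.1% of all genes. With total counts 5 of the 16 rose and 7 fell, against 20.4 and 51.7% of all genes. AGO2, an Argonaute protein, had 535 and 555 CPM with SP2509 and 202 and 189 CPM untreated (log2 fold change 1.48, SE 0.0969, edgeR adjusted p = 6.08e-08). PRKRA, the protein activator of PKR, and AGO3 were called at 1.03 and 1.02, and DGCR8, a microRNA processing factor, at -1.55 (edgeR adjusted p = 1.13e-06, 1.01e-06 and 8.13e-08). ADAR, which edits double-stranded RNA and so limits MDA5 activation, had 267 and 278 CPM with SP2509 and 298 and 277 CPM untreated, with overlapping ranges (log2 fold change -0.08, SE 0.0992, edgeR adjusted p = 0.488).

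In siPIR against untreated, most members were also lower, but the values followed the GC content of the transcripts. As fitted, 25 of the 38 members fell (65.8%), against 46.9% of all genes, and 10 rose (26.3%), against 39.3% of all genes. The members' median log2 fold change was -1.33, and that of all genes was -0.28. The all-gene median ran from 2.39 for transcripts under 35% GC to -5.83 for those over 65% GC, whereas in SP2509 against untreated the same bins gave -0.15 and -0.33. Members that rose in siPIR had 36.0 to 44.2% GC, and those that fell had 42.2 to 66.8% GC. A fit that gave each library an offset for its trend with GC content and transcript length was therefore set beside the first. With the offset, 28 members fell (73.7%), against 32.4% of all genes, and 4 rose (10.5%), against 32.7% of all genes, with medians of -1.06 for the members and -0.04 for all genes. In both fits 21 members fell and 3 rose, while 5 that rose as fitted fell with the offset and 1 went the other way. A further 3 that fell and 2 that rose as fitted were not called with the offset, and 2 not called as fitted fell with it. Of those 3, UBE2L6 was at -2.43 as fitted (edgeR adjusted p = 3.94e-09) and -0.01 with the offset (edgeR adjusted p = 0.976). This comparison uses the same untreated libraries as SP2509 against untreated, and its siPIR libraries carry the unclear label given above.

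**Figure D4:**
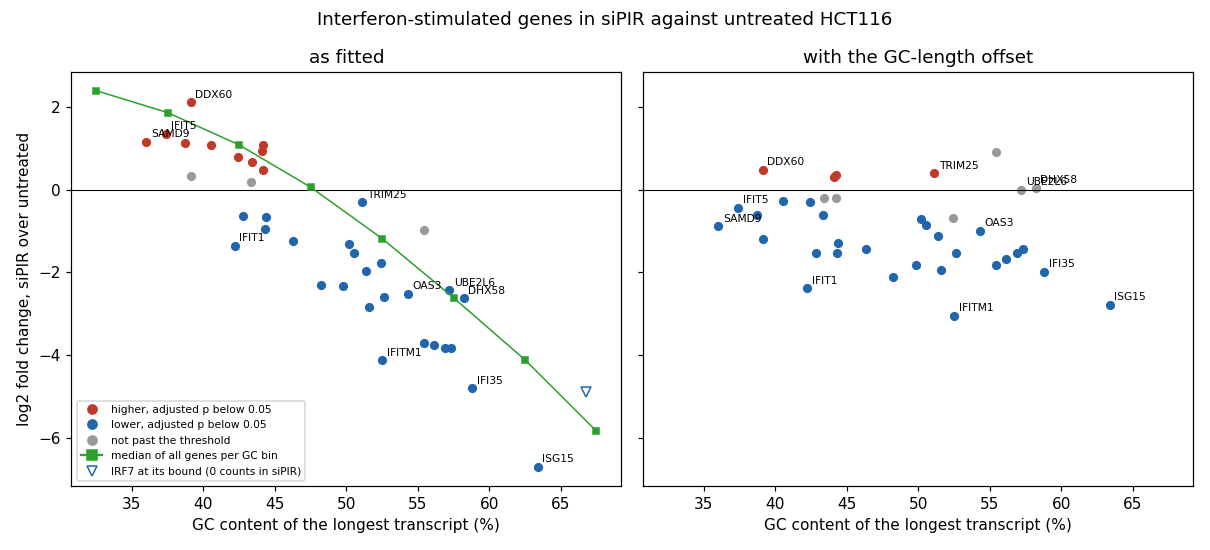
Log2 fold change, siPIR over untreated, of each member against the GC content of its longest transcript, as fitted (left, with the median of all genes per GC bin in green) and with the GC-length offset (right, IRF7 not drawn); colour gives the call at adjusted p below 0.05. On the left the members descend with GC content from DDX60 at 2.11 to ISG15 at -6.70, and on the right DDX60 is at 0.48 and ISG15 at -2.78.

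IRF7, with 66.8% GC the most GC-rich member, had 0 counts in both siPIR libraries, against 4.76 and 4.52 CPM in untreated libraries. Set against 3 counts in each siPIR library, it was at least 29.7-fold lower. This bound was not adjusted for GC content, and the all-gene median log2 fold change over 65% GC was -5.83. At 0 counts the fold change of IRF7 has no finite estimate in either fit, though IRF7 is counted among the members that fell in both. ISG15 had 0.313 and 0.312 CPM in siPIR libraries, against 34.0 and 32.0 CPM in untreated libraries (log2 fold change -6.70, SE 0.198, edgeR adjusted p = 1.64e-11), and -2.78 with the offset (edgeR adjusted p = 1.13e-08). IRF7 and ISG15 were the GC-richest members and, with SP2509, were higher than untreated. IFI35 had 0.157 and 0.104 CPM with siPIR and 3.79 and 3.73 CPM untreated (log2 fold change -4.80, edgeR adjusted p = 1.54e-08; -1.99 with the offset, adjusted p = 0.00141). TRIM25 had 125 and 142 CPM with siPIR and 168 and 163 CPM untreated, and its direction depended on the fit. Its log2 fold change was -0.31 as fitted (edgeR adjusted p = 0.0161) and 0.39 with the offset (edgeR adjusted p = 0.000136). DESeq2 with all libraries did not call it (-0.17, DESeq2 adjusted p = 0.187). The as-fitted call of TRIM25 was lost without untreated replicate 1 (adjusted p = 0.0947).

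Membrane effectors were low in siPIR under both fits. IFITM3 had 4.96 and 9.06 CPM in siPIR libraries, against 106 and 93.7 CPM in untreated libraries (log2 fold change -3.83, SE 0.189, edgeR adjusted p = 4.63e-10; -1.53 with the offset, adjusted p = 1.13e-08). IFITM2 had 1.99 and 4.22 CPM with siPIR and 42.3 and 38.9 CPM untreated (log2 fold change -3.71, edgeR adjusted p = 1.17e-09; -1.83 with the offset, adjusted p = 5.42e-09), and -4.33 as fitted without siPIR replicate 2. IFITM1 had 0.157 and 0.0521 CPM with siPIR and 2.13 and 1.64 CPM untreated (log2 fold change -4.12, edgeR adjusted p = 4.61e-06; -3.05 with the offset, adjusted p = 7.21e-05), and without siPIR replicate 1 the as-fitted value was -5.06. The 3 IFITM genes were thus lower in every siPIR library. BST2 had 0.104 and 0.156 CPM with siPIR and 1.85 and 1.99 CPM untreated (log2 fold change -3.83, edgeR adjusted p = 2.06e-06; -1.44 with the offset, adjusted p = 0.0322). IFI6 had 1.04 and 1.04 CPM with siPIR and 14.3 and 13.9 CPM untreated (log2 fold change -3.75, edgeR adjusted p = 6.49e-10; -1.67 with the offset, adjusted p = 7.38e-07).

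IFIT1, whose 42.2% GC lies where the all-gene median was above 0, had 2.87 and 3.12 CPM in siPIR libraries, against 8.16 and 7.12 CPM in untreated libraries. It was called at -1.35 (SE 0.189, edgeR adjusted p = 1.63e-05) as fitted and at -2.38 (edgeR adjusted p = 1.11e-10) with the offset. STAT2 was called at -1.31 and, with the offset, at -0.72 (edgeR adjusted p = 2.85e-07 and 2.58e-06), and OAS3 at -2.51 and -1.0 (edgeR adjusted p = 2.59e-10 and 4.13e-08). The direction of several GC-poor members depended on the fit. IFIT5 had 59.0 and 42.1 CPM with siPIR and 19.6 and 20.1 CPM untreated, a log2 fold change of 1.35 as fitted (edgeR adjusted p = 1.08e-06) and of -0.44 with the offset (edgeR adjusted p = 0.000367). SAMD9, EIF2AK2, DDX58 and PARP14 turned in the same way, at 1.16, 1.12, 1.08 and 0.80 as fitted and -0.88, -0.62, -0.27 and -0.29 with the offset, with edgeR adjusted p of at most 0.0261. DDX60, ZC3HAV1 and HERC5 were higher in both fits. DDX60 had 42.8 and 41.6 CPM with siPIR and 9.57 and 9.99 CPM untreated (log2 fold change 2.11, edgeR adjusted p = 2.22e-09, and 0.48 with the offset, adjusted p = 0.000466). DESeq2 with all libraries called neither IFIT2 nor IFIT3 (log2 fold change -0.49 and -0.81, DESeq2 adjusted p = 0.223 and 0.133). The as-fitted call of IFIT2 (-0.63, edgeR adjusted p = 0.0274) was lost without untreated replicate 2, siPIR replicate 1 or siPIR replicate 2 (adjusted p = 0.193, 0.077 and 0.0659), and that of IFIT3 (-0.95, edgeR adjusted p = 0.0134) without untreated replicate 1 or siPIR replicate 1 (adjusted p = 0.0732 and 0.156).

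Set directly against SP2509, siPIR libraries had 13 members higher (34.2%), against 38.8% of all genes, and 13 lower (34.2%), against 45.5% of all genes. With the GC-length offset 11 members were higher (28.9%) and 13 lower (34.2%), against 32.6 and 37.1% of all genes. Whether the members' shares differed from those of all genes was not tested. The largest as-fitted difference among members detected in both groups was that of ISG15, with 0.313 and 0.312 CPM in siPIR libraries, against 54.6 and 57.6 CPM in SP2509 libraries (log2 fold change -7.46, edgeR adjusted p = 7.18e-12). IFIT5, with 59.0 and 42.1 CPM in siPIR libraries, against 7.27 and 6.25 CPM in SP2509 libraries, differed most in the other direction (log2 fold change 2.90, edgeR adjusted p = 1.66e-09). These 2 genes also stand near the ends of the members' GC range, at 63.4 and 37.4% GC, and with the offset their log2 fold changes were -3.72 and 1.10 (edgeR adjusted p = 1.01e-11 and 1.54e-08). IFITM1, BST2, CMPK2 and OAS1, which were lower than untreated in both groups, did not pass the test between them (edgeR adjusted p = 0.337, 0.159, 0.481 and 0.237), at 1 to 9 counts per library for IFITM1 and BST2.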

How the data were processed

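RNA from 6 HCT116 libraries was sequenced after directional library preparation. The authors deposited estimated counts per gene, a table of 6 columns and 60675 Ensembl gene rows in which some values are fractional. Per the submitters' processing notes, FastQC 0.11.8, Trimmomatic 0.32, HISAT2, featureCounts of Subread 1.6.2 and edgeR 3.26.4 were used, with GRCh38. No source used here says how reads shared between genes were divided. Of the members, 21 had a fractional value in at least 1 library.

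The deposited expected counts were rounded to whole numbers. Genes were filtered with filterByExpr, scaled by TMM factors and fitted with the robust quasi-likelihood test of edgeR 4.0.16 in R 4.3.3 on all 6 libraries as 3 groups (3 residual degrees of freedom), and p-values were adjusted over the 16503 genes tested by the Benjamini-Hochberg method, with a threshold of 0.05. SE is the absolute log2 fold change divided by the square root of F. Total counts per library were taken over all 60675 gene rows. The GC-length offset removed, in each library, a spline trend (5 degrees of freedom) of log counts on GC content and length of the longest GENCODE 29 transcript. Replicates correlated at 0.991 to 0.996 over genes. Intervals and limits of detection, taken at 3 counts, cover counting error only. Alternatives were other scalings, DESeq2 1.42.0, other filters, blocks, the offset and leaving out each library.

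The members and the lists were chosen with earlier results of these data known. The rule for named genes was as follows. All members may be named. Every-library values are given for members called in SP2509 against untreated with an absolute log2 fold change of at least 1, for the 2 members of each role with the highest mean CPM, and for members at 3 or more in siPIR against untreated. Pathway genes are named where called with an absolute log2 fold change of at least 1 in SP2509 against untreated, and JAK1, TYK2, IFNAR1, IFNAR2, IFNB1, MAVS, TBK1, IRF3 and ADAR always; 1 further gene of the rule is not reported here. Outside that rule, and chosen after their values were seen, CXCL10, CXCL11, CCL5 and IFNE are named and library values are given for IRF9, MX1, IFI44, OAS2 and RSAD2.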

Additional observations from a re-analysis of the deposited data

How the results depend on the processing

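Of the 25 member calls in SP2509 against untreated, 20 held in all 15 alternatives. The members called numbered 22 to 34 over the alternatives with all libraries and 20 to 26 when a library was left out; those lower numbered 19 to 31 and 17 to 23, and those higher 3 to 5 and 3. With the GC-length offset, alone or with the replicate block, 5 members were higher. Of all genes tested in the alternatives with all libraries, 19.9 to 51.7% were lower and 18.9 to 38.2% higher. Scaling moved the medians of members and of all genes together: -0.77 and -0.04 with TMM, -1.0 and -0.27 with upper quartiles and -1.16 and -0.43 with total counts. With total counts only, 25 pathway genes rose and 35 fell; with libraries left out, 31 to 35 rose and 13 to 15 fell.

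Values that changed sign in SP2509 against untreated, none of them called as fitted, were HERC5 at -0.09 with upper quartiles and -0.24 with total counts, IRF1 at -0.14 and IFI35 at -0.10 with total counts, PARP14 at 0.01 with relative log expression scaling and with DESeq2, and OASL at 0.04 with the offset and 0.03 with the offset and block. With libraries left out, PARP14 ranged over -0.16 to 0.15, OASL over -0.11 to 0 and IFI44 over -0.99 to 0.34.

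In siPIR against untreated, 31 to 35 members were called over the alternatives. Of the 35 calls, 22 held in every alternative in which the gene was tested. Among these, OAS1 was tested in 14 of the 15. With the offset, alone or with the block, 4 members were higher, and the sign changed for IRF9 (0.92, with the block 0.93), DDX58 (-0.27), IFIH1 (-0.61), DHX58 (0.05), IFIT5 (-0.44, with the block -0.45), TRIM25 (0.39), SAMD9 (-0.88), EIF2AK2 (-0.62), PARP9 (-0.20), PARP14 (-0.29), DTX3L (-0.20) and IFI44 (-1.18). With total counts IFIH1 was -0.43, DTX3L -0.14 and IFI44 -0.27, and with the description number as a block IFI44 was -0.09. In siPIR against SP2509, the offset, alone or with the block, left 18 pathway genes higher, against 28 as fitted. The cause was not tested.

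The replicate numbers were not shown to pair the libraries: deviations of same-numbered libraries correlated at -0.0244, -0.0385 and 0.0815 in the 3 comparisons. With the replicate block, 25 members were called in SP2509 against untreated, 35 in siPIR against untreated and 26 in siPIR against SP2509, and no member's call changed in the comparisons with untreated. With 2 libraries per group, members of a few counts (IRF9, OAS1, IFI44, IFITM1 and BST2) have wide errors.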
